A study of Mus musculus with 14 samples.

Results

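Mitosis and spindle checkpoint genes encode the kinases, cyclins, checkpoint proteins, kinetochore parts, spindle motors, cytokinesis factors and chromosome proteins that a dividing cell uses from chromosome condensation to the separation of the daughter cells. The genes described here were chosen by name: 46 symbols were listed, and 44 of them have a probe set that the array annotation assigns to a single gene. Ccnb1 and Cdca8, which encode cyclin B1 and the passenger protein borealin, have no single-gene probe set in that annotation and no value here. Where the array has more than 1 probe set for a gene, the set with the highest mean log2 intensity stands for it. The 44 belong to 12393 genes with a single-gene probe set, and 37 of them passed a filter on low signal and were tested.

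The RNA came from brains of T9H/+ mice, heterozygous for a reciprocal translocation between chromosomes 7 and 15, and was hybridised to 14 Affymetrix GeneChip 430A arrays. MatDp7 animals carried the maternal duplication of proximal chromosome 7 together with the paternal duplication of proximal chromosome 15, and PatDp7 animals carried the reverse. Each duplication was measured in neonatal cortex, neonatal cerebellum and brain of embryos at 15.5 days post coitum (dpc) with 2 arrays, and in brain at 13.5 dpc with 1 array. Every group carries the translocation and a duplication of both segments, so none stands for an unaltered mouse, and the effects of the chromosome 7 and chromosome 15 segments cannot be told apart. The labels call the replicates biological, the design text speaks of samples analysed in duplicate, and neither gives a strain, sex, exact neonatal age, number of animals or pooling. The p-values therefore measure the spread between these samples, which may be partly technical.

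As background, entry into mitosis is driven by the kinase Cdk1 bound to A- and B-type cyclins, and cells leave mitosis when the anaphase-promoting complex (APC/C) with its activator Cdc20 marks cyclin B and securin for destruction. The spindle checkpoint proteins Bub1, BubR1, Bub3, Mad2 and Mps1 gather at kinetochores that lack microtubules and hold the APC/C back until every chromosome is attached. Most of these genes are transcribed mainly in the G2 and M phases of dividing cells, and in the developing brain such cells lie in the ventricular and subventricular zones of the forebrain and, around birth, in the external granule layer of the cerebellum.

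Intensities were the deposited linear signals, compared as log2 of the intensity plus 51.8. The median of an array lay between 212.6 and 281.1, and the number of arrays limits the precision. The brightest probe set reached 43127 to 61172 on the 4 neonatal arrays of replicate 1 and 17662 to 25858 on the other 10, so those 4 arrays stand apart. Against the labelled tissues, 4 of 6 tested cortex markers were higher in cortex than in cerebellum, led by the interneuron gene Dlx1 with a log2 difference of 3.94, and 5 of 9 tested cerebellum markers were higher in cerebellum. Values of single arrays are listed in the order MatDp7 replicate 1, MatDp7 replicate 2, PatDp7 replicate 1 and PatDp7 replicate 2, and for 13.5 dpc as MatDp7 and PatDp7. Levels of different probe sets are not comparable, so apart from the summed marker lists each gene is compared only with itself.

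The first comparison asked how these genes differed between ages. Of the 37 tested genes, 22 were lower in neonatal cortex and cerebellum together than in 15.5 dpc brain at an adjusted p under 0.05, and 0 were higher; over all 13576 probe sets tested, 7.18% were lower and 4.09% higher. The other 15 did not pass the test. The median log2 difference of the 37 was -0.82 and their range -1.94 to 0.13, against a median of -0.02 over all probe sets tested. At an unadjusted p under 0.05 stood 32 of the 37, against 31.3% of all. In cortex alone, 16 of 37 were lower than at 15.5 dpc (3.76% of all probe sets; 1.87% were higher, as was 0 of the 37), with a median of -0.75 and 28 at an unadjusted p under 0.05 (26.7% of all). In cerebellum alone, 18 of 37 were lower (4.62% of all; 2.75% were higher, and 0 of the 37), with a median of -0.89. Both comparisons share the 15.5 dpc arrays. The cortex arrays lay wholly below 15.5 dpc in 24 of the 37 genes (14.5% of all) and the cerebellum arrays in 27 (15.4%). In 21 of the 37 genes, all 8 neonatal arrays lay below all 4 arrays of 15.5 dpc brain, a pattern held by 9.61% of all probe sets tested.

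With the neonatal replicate 1 arrays alone 28 of 37 genes were called lower, against 26.6% of all probe sets in that fit, and with the replicate 2 arrays alone 30 of 38, against 9.31%. Over the 44 measured genes the median difference from 15.5 dpc was -0.64 with replicate 1 and -0.78 with replicate 2, and 42 were negative in each. Neonatal arrays of the same replicate number deviated together, though the labels do not pair them. With that number as a block 33 of the 37 were lower (23.2% of all), 29 in cortex alone (19.7%) and 31 in cerebellum alone (19.6%). This block takes the shift between neonatal replicate numbers out of the error, although a comparison with 15.5 dpc does not cancel that shift. The larger counts are therefore no firmer support, and the fit without the block treats these correlated arrays as independent. The count of 22 rested on few arrays at 15.5 dpc. Without the 15.5 dpc array of MatDp7 replicate 1, 8 genes were called lower in the neonatal tissues, without PatDp7 replicate 1 there were 12, and without PatDp7 replicate 2 there were 7. The calls over all probe sets fell in those fits too, from 1530 to 166, 262 and 167. In the cortex comparison the same omissions left 0, 4 and 0 genes, and in the cerebellum comparison 5, 9 and 4. Leaving out cortex MatDp7 replicate 1, MatDp7 replicate 2 or PatDp7 replicate 1 left 5, 9 or 10 genes in the cortex comparison, and leaving out cerebellum MatDp7 replicate 1 or PatDp7 replicate 1 left 7 or 8 in the cerebellum comparison. The calls of Ccnb2, Prc1, Kif23, Cdc20, Ube2c, Smc4 and Top2a held whichever of the 12 arrays of the replicated tissues was left out. The call of Bub1b held in the 11 of 12 such fits that tested it; without 15.5 dpc PatDp7 replicate 2 its mean fell under the filter.

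Markers of other cells moved with age as well. Of 16 tested genes of postmitotic neurons, 5 were higher in the neonatal tissues, and the summed intensity of the list lay at 15491 to 19432 at 13.5 dpc, 38036 to 44455 at 15.5 dpc, 53834 to 76394 in cortex and 57826 to 95807 in cerebellum. Blood genes summed to 32075 to 37967 at 13.5 dpc, 3606 to 9052 at 15.5 dpc, 947 to 2174 in cortex and 1309 to 2163 in cerebellum, and 3 of 7 tested, the embryonic globin genes Hbb-y and Hba-x and the heme synthesis gene Alas2, were lower after birth. Genes of the meninges summed to 36843 to 37071, 9519 to 12198, 3643 to 10105 and 3254 to 9099 in the same order, with 3 of 7 lower in the neonatal tissues. Of 15 tested progenitor markers, 4 were lower (Neurog2, Vim, Prom1 and Nes) and 0 higher, with 10 negative differences and a median of -0.33. The list summed to 20799 to 20855 at 13.5 dpc and 21985 to 31353 at 15.5 dpc. In cortex it summed to 18317 to 26198 and in cerebellum to 19744 to 26522, so the neonatal sums overlapped those of both earlier ages. Sums of intensity weigh the brightest probe sets most. The part of these cell types in the lower mitotic signal was not tested, and in tissue RNA fewer dividing cells and less RNA per dividing cell cannot be told apart. Embryonic arrays hold brain and neonatal arrays hold a dissected region, so age and dissection cannot be told apart either.

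**Figure D1:**
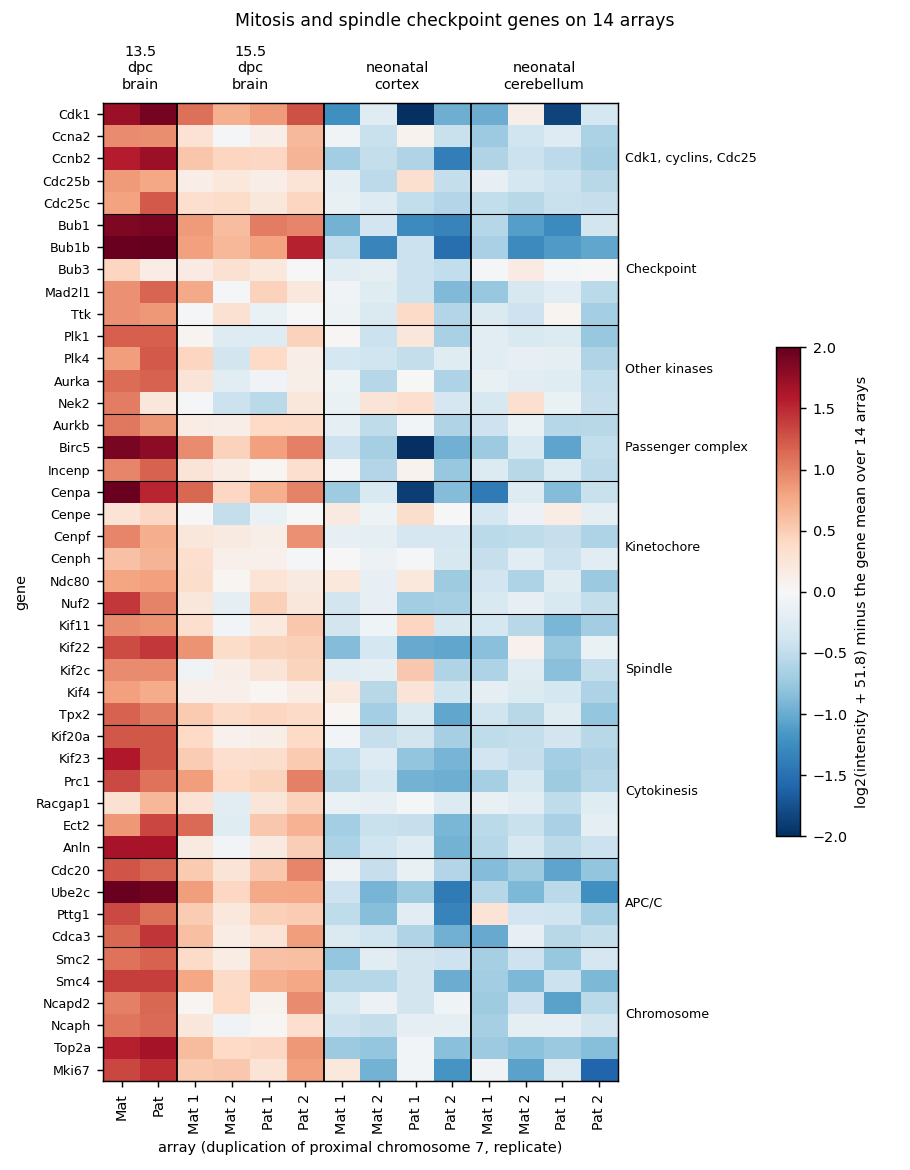
Each row is 1 of the 44 measured genes, grouped by role, and each column 1 of the 14 arrays; colour gives the log2 of intensity plus 51.8 minus the gene's mean over the arrays, from -2 (blue) to 2 (red). The 13.5 dpc columns are the reddest, the 15.5 dpc columns are paler, and most neonatal entries are blue. The Bub3 row stays close to white.

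Cdk1, the kinase that starts mitosis (probe set 1448314_at), had intensities of 1315, 983, 1095 and 1473 in 15.5 dpc brain, 218, 483, 99.6 and 271 in neonatal cortex and 266, 636, 124 and 447 in neonatal cerebellum. Every neonatal array lay below every 15.5 dpc array, and within the neonatal arrays all replicate 1 values lay below all replicate 2 values, a split seen in 19.1% of all probe sets tested. The log2 difference was -1.93 ± 0.364 (adjusted p = 0.0158), with a mean of 1220 ± 220 (SD, n = 4) at 15.5 dpc. That call was lost without 15.5 dpc MatDp7 replicate 1, PatDp7 replicate 1 or PatDp7 replicate 2, with adjusted p between 0.0606 and 0.0879. Cyclin B2, encoded by Ccnb2 (1450920_at), partners Cdk1 and stood at 486, 438, 433 and 532 at 15.5 dpc, 173, 211, 189 and 88.4 in cortex and 189, 219, 201 and 178 in cerebellum. No neonatal value reached the lowest 15.5 dpc value, and the difference was -1.19 ± 0.162 (adjusted p = 0.00563). Ccna2, which encodes cyclin A2, ran from 665 to 1098 at 15.5 dpc and from 390 to 714 in the neonatal tissues, so the ranges overlapped, and its difference of -0.63 ± 0.177 (adjusted p = 0.0523) missed the threshold. Cdc25b encodes a phosphatase that activates Cdk1, and its difference of -0.48 ± 0.163 (adjusted p = 0.0846) also missed it, with 1 cortex array, PatDp7 replicate 1 at 516, above all 15.5 dpc arrays.

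Among the checkpoint genes, 2 of the 4 tested were lower after birth. Bub1b (1416961_at) encodes BubR1, the part of the mitotic checkpoint complex that binds Cdc20, and read 348, 307, 344 and 602 at 15.5 dpc, 108, 38.2, 116 and 27.8 in cortex and 92.7, 42, 51.5 and 58 in cerebellum. The groups did not overlap, and its difference of -1.94 ± 0.263 (adjusted p = 0.00563) was the largest fall of the 37; some neonatal values lie below the added 51.8, so the size of this difference depends on that constant. Mad2l1 (1422460_at), which encodes the Cdc20 inhibitor Mad2, had 706, 385, 562 and 467 at 15.5 dpc, 375, 326, 281 and 192 in cortex and 213, 307, 332 and 258 in cerebellum. Its groups were separated by little, at 385 for the lowest 15.5 dpc array against 375 for the highest neonatal array, and the difference was -0.78 ± 0.185 (adjusted p = 0.0306); leaving out any of 6 arrays (cortex MatDp7 replicate 1 or 2, cerebellum MatDp7 replicate 1, 15.5 dpc MatDp7 replicate 1, PatDp7 replicate 1 or 2) ended the call, with adjusted p of 0.0538 to 0.134. Bub3 (1416815_s_at), a beta-propeller protein that carries Bub1 and BubR1 to kinetochores, read 2161, 2399, 2245 and 1918 at 15.5 dpc, 1652, 1675, 1414 and 1352 in cortex and 1883, 2173, 1870 and 1936 in cerebellum. Cortex lay below 15.5 dpc throughout while cerebellum overlapped it, and the difference of -0.33 ± 0.116 (adjusted p = 0.099) did not pass. Ttk encodes the kinase Mps1, which starts checkpoint signalling, and its difference of -0.27 ± 0.217 (adjusted p = 0.407) did not pass either.

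None of the 4 other mitotic kinases passed the test between 15.5 dpc and birth. Plk1 (1448191_at), a kinase of centrosome maturation and mitotic exit, read 332, 257, 258 and 457 at 15.5 dpc, 326, 222, 380 and 185 in cortex and 264, 249, 254 and 168 in cerebellum, and the ranges overlapped, with a difference of -0.30 ± 0.217 (adjusted p = 0.366). Aurka (1424511_at) encodes Aurora A of the spindle poles and read 414, 284, 317 and 372, 309, 211, 336 and 203 and 301, 282, 276 and 224 in the same 3 tissues. Its groups overlapped as well, with a difference of -0.32 ± 0.168 (adjusted p = 0.221). Plk4, the kinase that starts centriole duplication, differed by -0.48 ± 0.172 (adjusted p = 0.0971). Nek2 (1417299_at), a centrosome-splitting kinase, was the only tested gene of the list with a positive difference, at 0.13 ± 0.227 (adjusted p = 0.711), and its values of 154, 104, 92.6 and 195 at 15.5 dpc, 140, 200, 213 and 114 in cortex and 116, 210, 140 and 100 in cerebellum overlapped. Without 15.5 dpc PatDp7 replicate 1 that difference was -0.06.

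The chromosomal passenger complex, which corrects faulty kinetochore attachments and later guides cytokinesis, had 2 of 3 tested genes lower. Birc5 (1424278_a_at) encodes survivin and read 782, 546, 710 and 817 at 15.5 dpc, 271, 221, 37.6 and 171 in cortex and 211, 299, 157 and 255 in cerebellum. All neonatal values lay below all 15.5 dpc values, and 1 cortex array was far under the others at 37.6. The difference was -1.67 ± 0.249 (adjusted p = 0.00727), and without 15.5 dpc MatDp7 replicate 1 or PatDp7 replicate 2 the adjusted p was 0.0535 or 0.0525. Aurkb, the Aurora B kinase of the complex, ranged from 368 to 454 at 15.5 dpc and from 201 to 315 in the neonatal tissues, a difference of -0.65 ± 0.139 (adjusted p = 0.0223). Each 15.5 dpc array ended this call when left out, with adjusted p of 0.0698 to 0.102. Incenp, the scaffold of the complex, differed by -0.56 ± 0.188 (adjusted p = 0.0844) and did not pass.

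Of the 6 measured centromere and kinetochore genes, 3 were tested and all 3 were lower. Ndc80, Cenph and Cenpe fell under the filter and were not called in the fit without it. Cenpa (1450842_a_at) encodes the histone H3 variant that marks centromeres and read 626, 352, 452 and 551 at 15.5 dpc, 134, 195, 30.5 and 115 in cortex and 62.1, 202, 115 and 172 in cerebellum. The groups did not overlap, and the difference was -1.67 ± 0.281 (adjusted p = 0.011); without 15.5 dpc MatDp7 replicate 1, PatDp7 replicate 1 or PatDp7 replicate 2 it was not called (adjusted p 0.0513 to 0.0714). Cenpf, which encodes a large coiled-coil protein of the outer kinetochore, ranged from 444 to 803 at 15.5 dpc and from 246 to 354 after birth, a difference of -0.75 ± 0.151 (adjusted p = 0.0182) that rested on 15.5 dpc MatDp7 replicates 1 and 2 and PatDp7 replicate 2 (adjusted p 0.0576 to 0.0934 without each). Nuf2, a part of the Ndc80 complex that grips microtubules, fell by 0.58 ± 0.134 on the log2 scale (adjusted p = 0.0277) with overlapping ranges of 153 to 272 and 92.3 to 155. Leaving out cortex or cerebellum MatDp7 replicate 1, or 15.5 dpc MatDp7 replicate 1, PatDp7 replicate 1 or 2, ended the Nuf2 call (adjusted p 0.0548 to 0.135).

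The spindle motors and factors had 2 of 5 tested genes lower. Kif22 (1437716_x_at), a chromokinesin that pushes chromosome arms outward, read 1152, 782, 824 and 847 at 15.5 dpc, 301, 451, 270 and 263 in cortex and 310, 629, 330 and 537 in cerebellum. Its neonatal values stayed below the 15.5 dpc values, with a difference of -1.16 ± 0.215 (adjusted p = 0.0152); the call was lost without 15.5 dpc MatDp7 replicate 1, PatDp7 replicate 1 or PatDp7 replicate 2 (adjusted p 0.0669 to 0.0862). Tpx2, which activates Aurora A on the spindle, ranged from 371 to 418 at 15.5 dpc and from 107 to 282 after birth, a difference of -0.92 ± 0.198 (adjusted p = 0.0223), and each 15.5 dpc array ended its call when left out (adjusted p 0.0639 to 0.109). Kif11, the motor that separates the spindle poles, differed by -0.61 ± 0.179 (adjusted p = 0.0576) over both tissues and by -0.88 ± 0.206 (adjusted p = 0.0377) in cerebellum alone. On its other probe sets cerebellum overlapped 15.5 dpc. The ranges were 107 to 240 against 158 to 283 on 1452315_at and 88.7 to 185 against 145 to 238 on 1435306_a_at. Kif2c, a microtubule depolymerase, and Kif4, a chromokinesin of the central spindle, differed by -0.53 ± 0.209 (adjusted p = 0.126) and -0.34 ± 0.178 (adjusted p = 0.229) and were not called.

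In cytokinesis, 3 of the 4 tested genes were lower. Prc1 (1423775_s_at) bundles the microtubules of the central spindle and read 923, 665, 690 and 1041 at 15.5 dpc, 320, 376, 231 and 227 in cortex and 294, 383, 282 and 317 in cerebellum. The highest neonatal value, 383, lay well under the lowest 15.5 dpc value, 665, and the difference of -1.30 ± 0.154 (adjusted p = 0.00407) had the smallest adjusted p of the list. Kif23 (1455990_at) encodes the motor MKLP1 of the centralspindlin complex and read 294, 254, 259 and 298, 120, 152, 88.3 and 75.2 and 135, 125, 100 and 108 in the same tissues, again without overlap, with a difference of -1.0 ± 0.121 (adjusted p = 0.00419). Ect2, which activates RhoA at the cleavage furrow, varied at 15.5 dpc, from 127 to 414, against 60.5 to 133 in the neonatal tissues. The groups overlapped and the difference was -1.07 ± 0.248 (adjusted p = 0.0283), lost without cortex MatDp7 replicate 1, cerebellum MatDp7 replicate 1 or cerebellum PatDp7 replicate 1 (adjusted p 0.053 to 0.0573). Without 15.5 dpc MatDp7 replicate 1, PatDp7 replicate 1 or PatDp7 replicate 2, Ect2 fell under the filter and was not tested. Racgap1, the partner of Kif23 in centralspindlin, differed by -0.41 ± 0.138 (adjusted p = 0.0842) on its representative probe set and did not pass.

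All 4 genes around the APC/C were lower. Cdc20 (1416664_at), the activator on which the checkpoint acts, read 946, 781, 957 and 1311 at 15.5 dpc, 595, 451, 574 and 412 in cortex and 330, 372, 284 and 349 in cerebellum. On this probe set both neonatal tissues lay below 15.5 dpc and cerebellum also lay below cortex. The difference was -1.16 ± 0.154 (adjusted p = 0.00551). Ube2c (1452954_at), the ubiquitin-conjugating enzyme that works with the APC/C, read 1177, 867, 1115 and 1116, 461, 307, 369 and 207 and 413, 318, 423 and 242, a difference of -1.53 ± 0.203 (adjusted p = 0.00551). No neonatal value of Ube2c reached the 15.5 dpc range, and all neonatal replicate 1 values exceeded all replicate 2 values, opposite to Cdk1 and as in 17% of all probe sets. Cdca3, a trigger of Wee1 destruction, differed by -1.02 ± 0.197 (adjusted p = 0.0164), and without 15.5 dpc MatDp7 replicate 1 or PatDp7 replicate 2 the adjusted p was 0.0912 or 0.0934. Pttg1, which encodes securin, the guard of separase, read 3281, 2667, 3235 and 3281 at 15.5 dpc, 1608, 1247, 1962 and 883 in cortex and 2795, 1747, 1729 and 1437 in cerebellum. The cerebellum value of 2795 lay inside the 15.5 dpc range; the difference was -0.94 ± 0.226 (adjusted p = 0.0324), and it was lost without either cortex MatDp7 array or any 15.5 dpc array (adjusted p 0.0509 to 0.141).

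Of the condensin and chromosome genes, 4 of 6 tested were lower. Smc4 (1452197_at), a core ATPase of condensin, read 996, 739, 943 and 991 at 15.5 dpc, 361, 361, 422 and 254 in cortex and 326, 277, 399 and 274 in cerebellum, with no overlap and a difference of -1.33 ± 0.164 (adjusted p = 0.00458). Top2a (1454694_a_at), the topoisomerase that untangles sister chromatids, read 1159, 976, 997 and 1376, 419, 408, 702 and 388 and 419, 392, 416 and 383. Its 8 neonatal values lay below 15.5 dpc and were close together except for 702 in cortex PatDp7 replicate 1; the difference was -1.27 ± 0.168 (adjusted p = 0.00553). Smc2, the partner of Smc4, differed by -0.93 ± 0.149 (adjusted p = 0.00956), and Ncapd2, a condensin I subunit, by -0.82 ± 0.196 (adjusted p = 0.0321). The Smc2 call was lost without 15.5 dpc MatDp7 replicate 1, PatDp7 replicate 1 or PatDp7 replicate 2 (adjusted p 0.0526 to 0.0638), and the Ncapd2 call without any of 7 arrays: cortex or cerebellum MatDp7 or PatDp7 replicate 1, 15.5 dpc MatDp7 replicate 1 or 2, or PatDp7 replicate 2 (adjusted p 0.0558 to 0.136). Ncaph, another condensin I subunit, did not pass at -0.46 ± 0.137 (adjusted p = 0.06). Mki67 (1426817_at), which encodes the proliferation antigen Ki-67, read 641, 644, 530 and 800 at 15.5 dpc, 503, 199, 409 and 160 in cortex and 404, 177, 349 and 108 in cerebellum. Every neonatal value of Mki67 was below 15.5 dpc, but replicate 1 and replicate 2 stood apart within both neonatal tissues, and the difference of -1.16 ± 0.353 (adjusted p = 0.064) missed the threshold.

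**Figure D2:**
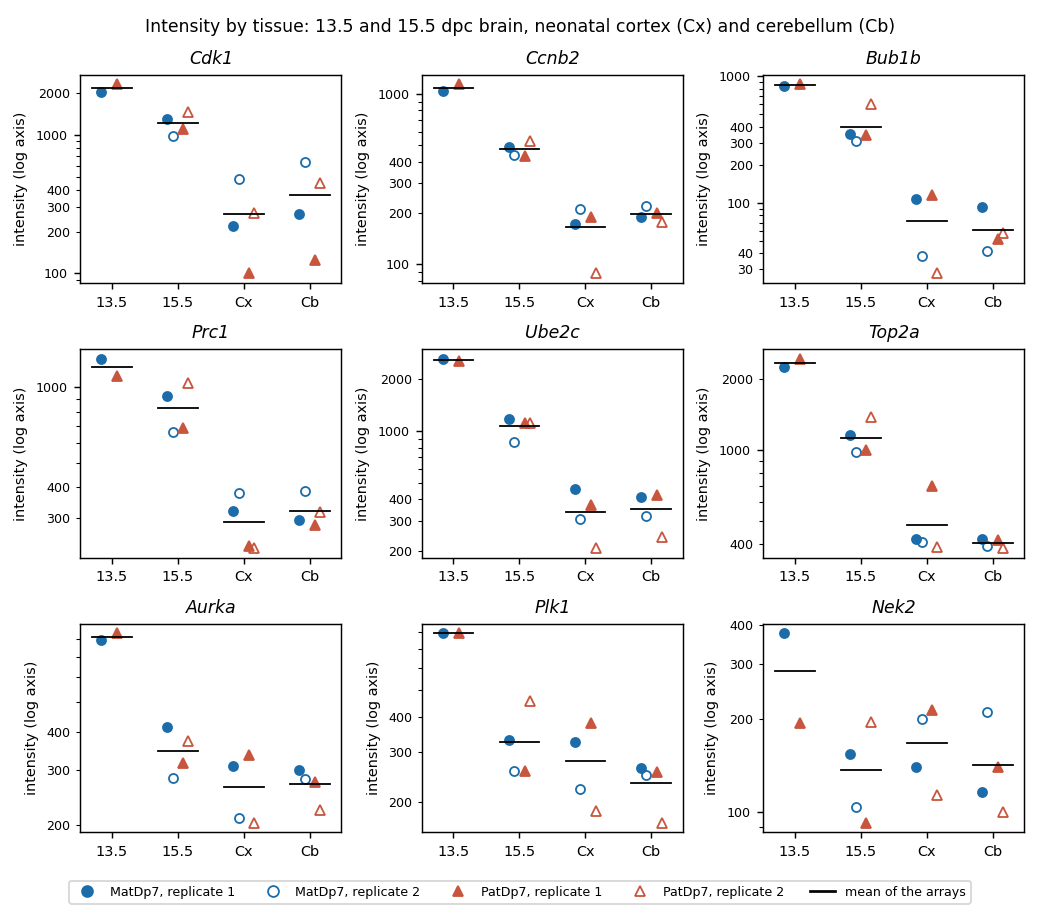
Intensity on a log axis for 9 genes on each array of 13.5 dpc brain, 15.5 dpc brain, neonatal cortex (Cx) and neonatal cerebellum (Cb); circles are MatDp7, triangles PatDp7, filled symbols replicate 1, open symbols replicate 2, and black lines the mean of the arrays. In Cdk1, Ccnb2, Bub1b, Prc1, Ube2c and Top2a the neonatal arrays lie below all 15.5 dpc arrays, while in Aurka, Plk1 and Nek2 they overlap.

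The 7 measured genes with a mean signal below the filter were examined in a fit without it, in which 3.98% of all probe sets were lower in the neonatal tissues. Bub1 (1424046_at), the checkpoint kinase that builds the kinetochore platform, read 226, 185, 261 and 250 at 15.5 dpc, 27.9, 66.3, 11.6 and 9.1 in cortex and 51.6, 20.2, 12 and 67.3 in cerebellum, a difference of -1.77 ± 0.206 (adjusted p = 0.0044). Cdc25c, a Cdk1-activating phosphatase, ranged from 58.7 to 75.2 at 15.5 dpc and from 10.8 to 33 after birth, and fell by 0.77 ± 0.0895 on the log2 scale (adjusted p = 0.0044). For both genes, most or all neonatal values lay under the added 51.8, so these sizes depend on it. Anln, which encodes the contractile ring protein anillin, and Kif20a, a kinesin of the midzone, were called lower too, at -0.71 ± 0.171 (adjusted p = 0.0434) and -0.69 ± 0.148 (adjusted p = 0.0313). The kinetochore genes Ndc80 (-0.51 ± 0.204 (adjusted p = 0.163)), Cenph (-0.35 ± 0.117 (adjusted p = 0.109)) and Cenpe (0.14 ± 0.135 (adjusted p = 0.524)) were not. Most neonatal values of Cenph and Cenpe, and all 15.5 dpc values of Cenpe, also lay under 51.8. The sizes for these genes depend on it too. Without the filter, 26 of the 44 measured genes were called lower and 0 higher.

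Several genes have more than 1 probe set, and these did not always give the same call. Of 77 probe sets of the 44 genes, 53 passed the filter and 28 of those were lower in the neonatal tissues, belonging to 25 genes. Ccna2, Kif2c and Racgap1 were called on another probe set, at -1.08 ± 0.139 (adjusted p = 0.00533), -0.94 ± 0.178 (adjusted p = 0.0158) and -1.03 ± 0.138 (adjusted p = 0.00563). In the other direction, a second probe set of Smc4 (1427275_at) differed by -0.05 ± 0.514 (adjusted p = 0.957), and a further set of Cdca3 (1448001_x_at) by 0.15 ± 0.216 (adjusted p = 0.642). A second probe set of Cenpf (1452334_at) read 238, 202, 236 and 286 in brain of the older embryos. It read 275, 202, 376 and 203 in cortex and 159, 207, 177 and 154 in cerebellum. Both neonatal tissues thus overlapped the older embryos on this set, unlike on the representative set of Cenpf. The representative sets of Aurkb, Incenp, Kif22 and Ncaph end in _x_at and those of Bub3, Plk4, Prc1 and Pttg1 in _s_at, suffixes that Affymetrix gives to sets which may bind related transcripts, so these values are less certain.

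The promoters of these genes are shown because many members moved together with age. RefSeq (GRCm38.p6) gave 42 promoter windows for 39 of the 46 genes, each from 250 bases before to 50 after a transcription start; Incenp, Kif20a, Cdc25c, Aurkb, Tpx2, Ccna2 and Smc4 were not matched. As background, CCAAT boxes bind the factor NF-Y, and the cell cycle genes homology region, TTTGAA or the variant TTCGAA, binds the MuvB complexes that switch G2/M genes. CCAAT, on either strand (ATTGG on the other), was in 33 of the 42 windows (78.6%) and in 37.4% of all 32851 windows of the same length. TTTGAA, searched on both strands, was in 30 of 42 (71.4%), against 17.9% of all. TTCGAA, which reads the same on both strands, was in 4 of 42 (9.5%), against 1.6%. A CCAAT match together with either of the others occurred in 29 of 42 (69.0%), against 7.5% of all windows. Matches of CCAAT and of the other motifs can share an end base, and each was counted. Motif matches were also counted by call. CCAAT was found in 15 of 19 called genes with a window and in 10 of 13 tested genes that were not called, and TTTGAA in 15 of 19 and 9 of 13. A match is a match of letters and not evidence of binding.

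The 100 bases before the start are given for 5 genes that were lower after birth, from entry into mitosis to its exit, and for Bub3 and Nek2, which were not called. All are written 5′ to 3′ on the gene's strand in lower case, with capitals for matches of the 3 motifs on either strand. Coordinates are chr10:69352913-69353012 (minus strand) for Cdk1, chr9:70421555-70421654 (minus strand) for Ccnb2, chr4:118437344-118437443 (minus strand) for Cdc20, chr7:127042421-127042520 (minus strand) for Kif22, chr2:164769829-164769928 (plus strand) for Ube2c, chr7:131560270-131560369 (plus strand) for Bub3 and chr1:191821373-191821472 (plus strand) for Nek2, all in GRCm38.p6; Bub3 has 2 windows and the first is shown.
Cdk1: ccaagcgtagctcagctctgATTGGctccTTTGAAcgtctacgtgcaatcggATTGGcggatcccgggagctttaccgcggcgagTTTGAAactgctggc
Ccnb2: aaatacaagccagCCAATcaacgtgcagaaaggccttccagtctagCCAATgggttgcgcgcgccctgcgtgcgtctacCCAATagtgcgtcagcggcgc
Cdc20: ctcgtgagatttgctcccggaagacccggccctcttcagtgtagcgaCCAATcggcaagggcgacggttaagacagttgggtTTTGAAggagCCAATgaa
Kif22: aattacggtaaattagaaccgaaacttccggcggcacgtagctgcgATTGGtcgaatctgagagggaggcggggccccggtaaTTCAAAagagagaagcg
Ube2c: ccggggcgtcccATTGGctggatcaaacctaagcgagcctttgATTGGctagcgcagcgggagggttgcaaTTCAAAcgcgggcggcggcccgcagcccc
Bub3: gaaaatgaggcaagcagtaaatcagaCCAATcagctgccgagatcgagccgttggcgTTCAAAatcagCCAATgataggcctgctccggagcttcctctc
Nek2: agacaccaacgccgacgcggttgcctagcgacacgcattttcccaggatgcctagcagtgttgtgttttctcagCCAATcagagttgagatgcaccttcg
In these stretches Cdk1, Kif22 and Ube2c hold CCAAT or its complement and the TTTGAA motif on either strand, and Ccnb2 holds CCAAT alone. The TTTGAA matches in the full window of Ccnb2 start at bases -167 and 5 and lie outside the stretch shown. Bub3 carries the same kinds of match as Cdc20. In the neonatal tissues Cdc20 was lower (-1.16) and Bub3 was not called (-0.33). Whether these matches bear on the change with age was not tested. Nek2 has CCAAT only.

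The earlier step, from 13.5 to 15.5 dpc, compares brain with brain. Of the 37 tested genes, 7 were lower at 15.5 dpc and 0 higher, against 2.75% lower and 2.28% higher over all probe sets. With a block for the neonatal replicate number, which leaves these differences as they are, 28 of the 37 were lower, against 9.04% of all. All 37 differences were negative, from -1.25 to -0.12, with a median of -0.80 against -0.01 over all probe sets tested. An unadjusted p under 0.05 was held by 32 of the 37, against 18.9% of all. In 32, all 4 arrays of 15.5 dpc lay below both arrays of 13.5 dpc, as in 21.4% of all probe sets. In 20 the order held through all ages, with every neonatal array below every 15.5 dpc array and those below both 13.5 dpc arrays, against 3.66% of all. The 13.5 dpc groups hold 1 array each, which were assumed to vary like the others.

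Ube2c led the called genes, with 2636 and 2553 at 13.5 dpc and 867 to 1177 at 15.5 dpc, a difference of -1.25 ± 0.287 (adjusted p = 0.0417). Aurka, whose neonatal levels overlapped those of 15.5 dpc, read 792 and 831 at 13.5 dpc and 284 to 414 at 15.5 dpc, a difference of -1.13 ± 0.238 (adjusted p = 0.0323). The ages did not overlap in either gene. Ccnb2 stood at 1034 and 1144 and then at 433 to 532 (-1.12 ± 0.229 (adjusted p = 0.0279)). Top2a went from 2252 and 2435 to 976 to 1376 (-1.03 ± 0.238 (adjusted p = 0.0419)), and Nuf2 from 570 and 412 to 153 to 272 (-1.02 ± 0.19 (adjusted p = 0.0202)). None of these ranges overlapped either. Kif23 and the condensin gene Ncaph completed the called genes at -0.99 ± 0.171 (adjusted p = 0.0153) and -0.98 ± 0.194 (adjusted p = 0.0248). Plk1, at 793 and 793 on the 13.5 dpc arrays and 257 to 457 at 15.5 dpc, missed the threshold at -1.19 ± 0.307 (adjusted p = 0.0603), as did Cdk1 at -0.84 ± 0.515 (adjusted p = 0.454) and Bub1b at -1.04 ± 0.372 (adjusted p = 0.161); with the neonatal block these 3 were called, at adjusted p of 0.00284, 0.00708 and 0.014. In the fit without the filter, where 3.38% of all probe sets were lower, the low-signal genes Anln (-1.45 ± 0.242 (adjusted p = 0.0102)), Kif20a (-0.98 ± 0.21 (adjusted p = 0.0305)) and Cdc25c (-0.68 ± 0.127 (adjusted p = 0.0173)) were called as well. Without 15.5 dpc MatDp7 replicate 2 or PatDp7 replicate 1 the count of 7 fell to 0, and without PatDp7 replicate 2 to 1. The Top2a call was lost without any of 10 arrays (adjusted p 0.0547 to 0.133) and the Ube2c call without any of 8 (0.052 to 0.132), which include all 4 of 15.5 dpc. With the neonatal replicate 1 arrays alone in the fit, 26 of 37 genes were lower in this step (7.73% of all probe sets), and with the replicate 2 arrays alone 27 of 38 (7.83%). Over the same step, 6 of 16 tested neuron markers rose, and 4 of 7 meninges genes and 2 of 7 blood genes fell. Of 15 tested progenitor markers, 2 rose and 0 fell, with a median of 0.37. The part of these cell types was not tested.

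Whether a gene changed more before or after 15.5 dpc was tested as the later difference minus the earlier; both share the 15.5 dpc arrays, and the contrast was chosen after their values were seen. None of the 37 genes was called, against 0.199% of all probe sets, and 2 had an unadjusted p under 0.05, against 11.5% of all. Prc1 leaned to the later step at -0.77 ± 0.32 (adjusted p = 0.405), with -0.53 before and -1.30 after 15.5 dpc. Aurka leaned to the earlier step at 0.80 ± 0.351 (adjusted p = 0.433), with -1.13 before and -0.32 after. Neither passed, so the steps were not shown to differ for any tested gene in this fit. With the neonatal replicate 1 arrays alone, which leave 1 array in each neonatal group, the contrast was -1.68 for Cdk1 and 0.98 for Aurka.

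**Figure D3:**
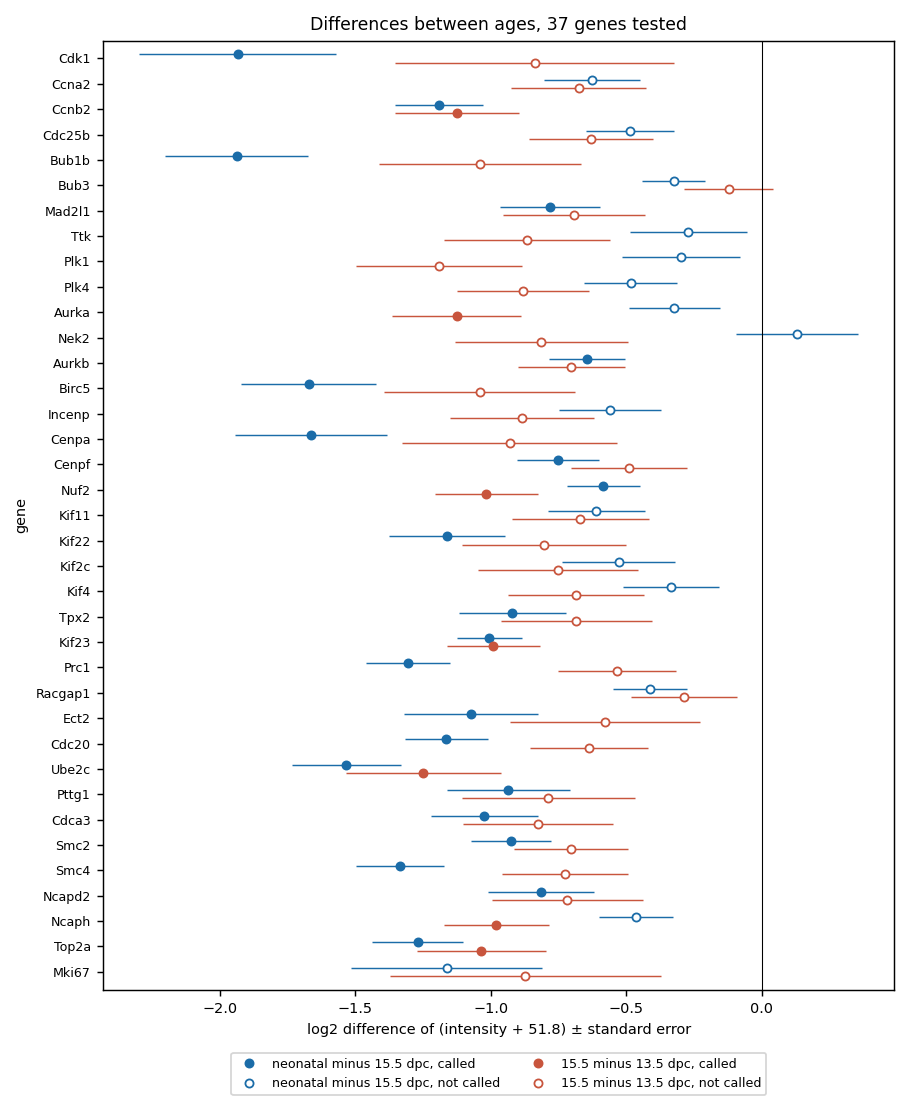
Log2 differences with standard errors for the 37 tested genes, ordered by role, for neonatal cortex and cerebellum minus 15.5 dpc brain (blue) and 15.5 dpc minus 13.5 dpc brain (red); filled points passed an adjusted p under 0.05. All points but the neonatal value of Nek2 (0.13) lie left of 0, and the 22 filled blue points reach -1.94 in Bub1b.

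Cortex and cerebellum were compared to ask whether the newborn regions differ in mitotic transcripts. None of the 37 tested genes was called by limma, against 0.368% of all probe sets, and 3 had an unadjusted p under 0.05, against 7.4% of all. The median difference, cortex minus cerebellum, was 0.08, against 0.02 over all probe sets. Cdc20 was higher on every cortex array (595, 451, 574 and 412) than on any cerebellum array (330, 372, 284 and 349), with a difference of 0.53 ± 0.178 (adjusted p = 0.483). Cenpf and Ncapd2 also separated with cortex above, so 3 of 37 did against 3.17% of all probe sets, with differences of 0.27 ± 0.175 (adjusted p = 0.82) and 0.47 ± 0.227 (adjusted p = 0.714). Bub3 separated the other way, with 1652, 1675, 1414 and 1352 in cortex and 1883, 2173, 1870 and 1936 in cerebellum (-0.36 ± 0.134 (adjusted p = 0.564)), as did 2.81% of all probe sets. In these 4 genes the full separation fixes the direction within replicate 1 and within replicate 2, so the replicates add no further support. These separations are those of the representative probe sets. On another Cdc20 set (1439377_x_at) the regions overlapped, at 417, 377, 312 and 198 in cortex and 310, 303, 387 and 255 in cerebellum. They also overlapped on 1452334_at of Cenpf and on 1448473_at of Bub3. Kif11, the remaining gene with a low unadjusted p, differed by 0.54 ± 0.206 (adjusted p = 0.595), with 1 cortex array at 269 and the others at 133 to 173 against 75.5 to 136 in cerebellum. Over the 44 measured genes, the median was 0.23 within replicate 1, with 13 negative, and -0.06 within replicate 2, with 27 negative, so no common direction held in both.

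The groups of the series were set up by the parental origin of the duplications. Averaged over the 3 replicated tissues, 0 of the 37 genes differed between PatDp7 and MatDp7 by limma, against 0.133% of all probe sets, and 0 had an unadjusted p under 0.05, against 1.42% of all. The differences ran from -0.43 to 0.17 with a median of -0.03. In cortex 0 genes were called (0.0737% of all), and 2 had an unadjusted p under 0.05 (1.97% of all). Birc5 differed there by -1.07 ± 0.406 (adjusted p = 1), with 271, 221, 37.6 and 171 on the 4 cortex arrays, and the low value of 37.6 stands in PatDp7 replicate 1. Kif23 differed by -0.49 ± 0.197 (adjusted p = 1), with 120, 152, 88.3 and 75.2 on the 4 cortex arrays. In cerebellum 0 genes were called (0.11% of all), 0 had an unadjusted p under 0.05 (0.906% of all) and 28 of 37 differences were negative, with a median of -0.15. In 15.5 dpc brain 0 were called (0.0737% of all), 0 had an unadjusted p under 0.05 (0.656% of all) and 30 of 37 were positive, with a median of 0.14. An F-test of whether the parental difference varied between tissues called 0 genes and 0 of all 13576 probe sets; at an unadjusted p under 0.05 it held 0.494% of all, and the smallest unadjusted p among the genes was 0.0975, for Nuf2.

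In the GRCm38.p6 gene table, 5 of the tested genes lie on chromosome 7 and 1 on chromosome 15; whether they lie inside the duplicated segments was not examined. On chromosome 7, PatDp7 minus MatDp7 was -0.16 ± 0.11 for Bub3, -0.21 ± 0.203 for Kif22 and -0.20 ± 0.333 for Mki67. For Plk1 it was -0.02 ± 0.205 and for Prc1 -0.18 ± 0.145. Racgap1 on chromosome 15 gave 0.04 ± 0.13. None of these 6 passed, and their sizes lie inside the range of the other genes. Cdk1, on another chromosome, had the most negative value of the 37 at -0.43 ± 0.343.

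**Figure D4:**
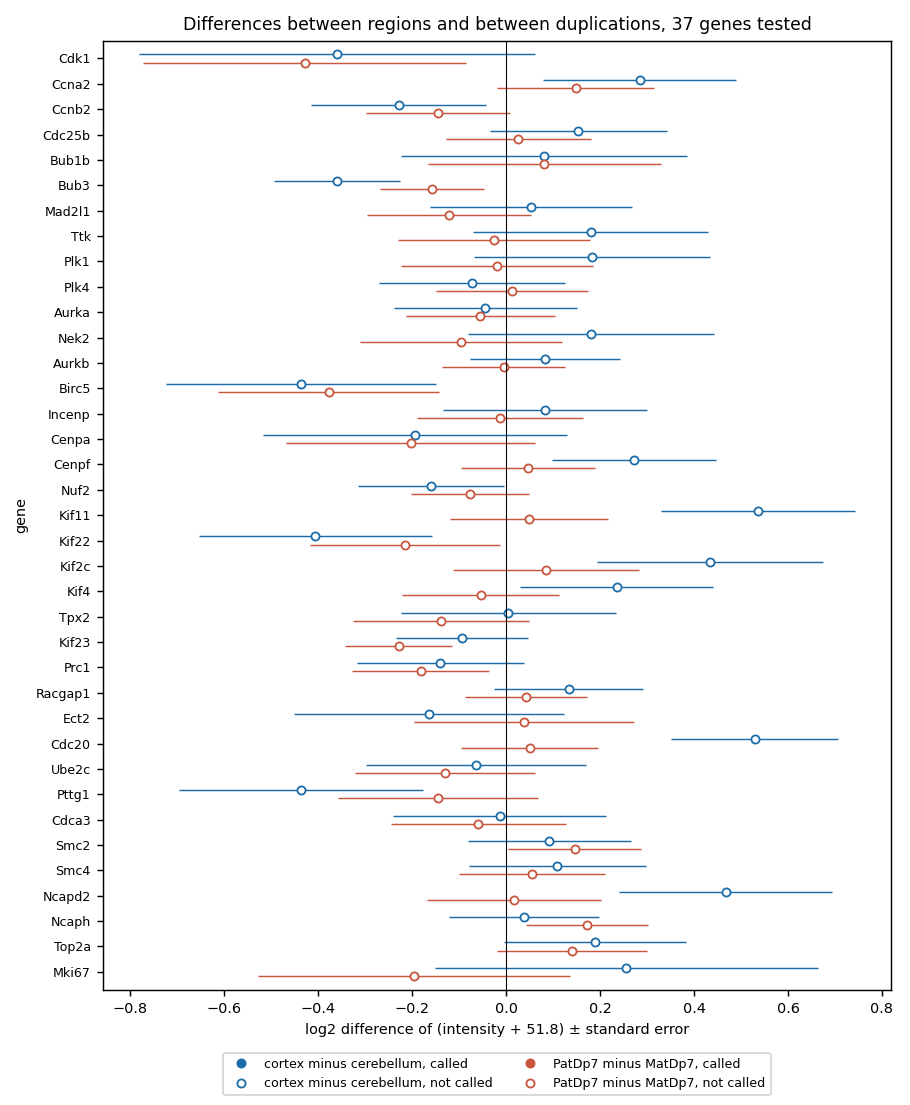
Log2 differences with standard errors for the 37 tested genes, ordered by role, for neonatal cortex minus cerebellum (blue) and for PatDp7 minus MatDp7 as the average of the 3 replicated tissues (red). All points are open because none passed an adjusted p under 0.05, and the red points run from -0.43 to 0.17.

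Other genes of the cell cycle were taken from lists of related function, and their counts after birth stand against the 7.18% lower and 4.09% higher of all probe sets tested. Of 27 tested genes among 63 further mitosis genes, 7 were lower in the neonatal tissues and 0 higher, with a median of -0.33. They included Pbk, a mitotic kinase (-1.04 ± 0.164 (adjusted p = 0.00905)), Cep55, which recruits the abscission machinery to the midbody (-0.94 ± 0.196 (adjusted p = 0.0202)), and Ska2, of the kinetochore SKA complex (-0.68 ± 0.146 (adjusted p = 0.0229)). A list of APC/C subunits, which also holds the partners Fzr1, Ube2s and Fbxo5, had 13 tested genes. Of these, 4 were lower: Anapc11, the RING subunit (-1.02 ± 0.215 (adjusted p = 0.0212)), Cdc16 (-0.82 ± 0.132 (adjusted p = 0.00956)), Cdc26 (-0.79 ± 0.172 (adjusted p = 0.023)) and Cdc23 (-0.48 ± 0.119 (adjusted p = 0.0356)). The median of the 13 tested genes was -0.48 in this step and -0.03 between 13.5 and 15.5 dpc, where 0 passed. The cohesin genes, which hold sister chromatids together, had 1 of 10 lower, Cdca5 or sororin (-0.76 ± 0.144 (adjusted p = 0.016)), and 1 higher, the cohesin loader gene Mau2 (1.55 ± 0.418 (adjusted p = 0.0453)), with a median of -0.16.

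Of 21 tested regulators of the G1 phase, 8 were lower after birth and 0 higher, with a median of -0.30. Cdk4, the D-cyclin kinase that opens the cell cycle, differed by -1.41 ± 0.152 (adjusted p = 0.00369), and Rbl1, which encodes the pocket protein p107, by -0.97 ± 0.145 (adjusted p = 0.00727). Between 13.5 and 15.5 dpc, 6 of these 21 were lower (2.75% of all probe sets), among them E2f1, an activator of S-phase genes (-1.0 ± 0.17 (adjusted p = 0.0143)), and Ccnd3, which encodes cyclin D3 (-1.21 ± 0.211 (adjusted p = 0.0155)). Of 8 tested inhibitors of cyclin-dependent kinases and related antiproliferative genes, 3 were lower after birth, among them Cdkn1c, which encodes p57 (-1.40 ± 0.255 (adjusted p = 0.0145)), and 1 was higher, Cdkn1a, which encodes p21 (0.60 ± 0.155 (adjusted p = 0.0403)). None of the 8 was called between 13.5 and 15.5 dpc, where 1 had an unadjusted p under 0.05.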

How the data were processed

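The 14 arrays were prepared from brain RNA with a biotin label, per the labels' protocols. The deposited values are linear signal intensity per probe set, made by the authors with MAS5 per the submitters' processing notes; its version is not given in the sources used here. The trimmed mean (2% at each end) was 500.13 to 500.15 on every array, so no further scaling was applied. Of 22690 probe sets, 64 are controls; the annotation names 1 gene for 20380, several for 691 and none for 1555.

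To each intensity 51.7558 was added, which is the 20th percentile over the 14 arrays, and log2 was taken. The test covered the 13576 probe sets (8156 genes) whose mean log2 reached the 40th percentile. The filter and the probe set choice use the mean over all arrays. A model of 8 group means was fitted in limma 3.58.1 (R 4.3.3) with an intensity trend, 6 residual and 3.15 prior degrees of freedom, and Benjamini-Hochberg adjustment ran over all probe sets tested; called means adjusted p under 0.05. Errors of log2 differences are standard errors. A log2 difference on this scale understates the change of low signals. The code was tested on simulated data. The members and lists were chosen with earlier results of these data known, so neither is independent support for a pattern. All measured members are named by the report. Alternatives covered the added constant, the filter, scaling, probe sets, the trend, a replicate block and fits that left out any of 12 arrays. Python 3.11.15 and matplotlib 3.10.9 made the figures. Detection calls were not used here, so a low intensity is not called absent.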

Additional observations from a re-analysis of the deposited data

Results flagged for a closer look

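In 132 sets of 4 arrays, 1 set for each gene and replicated tissue, 5 (3.79%) held an array whose gap to the nearest other array divided by the range of the 4 exceeded Dixon's 95% critical value; chance gives about 1 in 20 such sets. In cerebellum PatDp7 replicate 2, Plk1 stood at 168 against 249 to 264 on the others, and Plk4 at 167 against 236 to 246. Cenpf stood at 803 in 15.5 dpc PatDp7 replicate 2 against 444 to 482. Pttg1 stood at 2670 in 15.5 dpc MatDp7 replicate 2 against 3240 to 3280. Top2a stood at 702 in cortex PatDp7 replicate 1 against 388 to 419.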

How the results depend on the processing

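Under a replicate block, counts moved most for 15.5 against 13.5 dpc, from 7 genes called to 14 with a block over all tissues and 28 with a block for the neonatal arrays alone (2824 of all 13576 probe sets called). The neonatal block also gave 29 genes for cortex and 31 for cerebellum against 15.5 dpc, where 16 and 18 were reported, and 1 (Cdk1, -1.10) for the later minus the earlier step. Deviations of neonatal samples with the same number correlated at 0.71 to 0.815, and the other 9 pairs of groups at -0.092 to 0.264; the labels do not pair the samples, so the fit without the block was reported. All 22 genes lower in the neonatal tissues were among the 33 called with the neonatal block. For comparisons with 15.5 dpc that block leaves the shift between neonatal replicate numbers out of the error, so this is not independent support. With the neonatal replicate 1 or replicate 2 arrays alone, 15.5 against 13.5 dpc gave 26 or 27 genes, and the step contrast gave 2 with replicate 1 alone. A filter at the 60th percentile tested 21 genes and called 14 for the neonatal tissues, 10 for cortex, 11 for cerebellum and 3 for 15.5 against 13.5 dpc. Leaving out each array in turn gave 7 to 26 genes for the neonatal tissues, 0 to 15 for cortex, 4 to 21 for cerebellum and 0 to 9 for 15.5 against 13.5 dpc. The difference of Nek2 ran from -0.06, without 15.5 dpc PatDp7 replicate 1, to 0.23. Without 1 array Nek2 was tested in 8 of 12 fits, Ect2 in 9, Bub1b in 11 and Ttk in 11, being under the filter in the others. The other constants and scalings, the mean of all probe sets, no filter and no trend kept these counts within 1.5 times. Of the calls for the neonatal tissues, quantile scaling ended that of Pttg1 and the mean of all probe sets those of Cdca3, Cenpf and Smc4. With the replicate 2 arrays alone the difference of Ncapd2 was -0.65. For 15.5 against 13.5 dpc, the smaller constant of 16 ended the call of Ube2c (adjusted p = 0.0531), median centring those of Ncaph (0.0513) and Top2a (0.0502), and the mean of all probe sets that of Top2a (0.0991). Every setting called 0 genes between regions, between duplications and in the F-test. The causes of these shifts were not tested. Signal near the added constant limits the sizes given for Bub1, Bub1b, Cdc25c, Cenph and Cenpe.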
